A study of Mus musculus with 24 samples.

Results

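Porcn, Wls and 8 genes of Wnt signal feedback and response (Axin2, Lef1, Tcf7, Sp5, Nkd1, Rnf43, Znrf3 and Lgr5) were followed in RNA sequencing of mouse embryonic stem cells and embryoid bodies. Part of the groups were treated to remove the protein BRD2, whose level these data do not measure. The genes, 10 of the 35742 measured, were chosen by name with earlier results of these data known. Each was found once by its symbol in every table. The line, V6.5, is of mouse embryonic stem (mES) cells, here with a degron on BRD2: a tag that lets auxin trigger removal of the protein. All 8 groups carried this degron, so none is without the tag. Every culture was given doxycycline (Dox, 1 µg/ml) over 18 h beforehand, and in 4 of the groups this was followed by indole-3-acetic acid, the auxin IAA (500 µM, 24 h). The groups are mES with Dox, mES with IAA, and embryoid bodies (EB), which are aggregates of differentiating stem cells, of day 2, 3 or 4 with Dox or with IAA, called EBd2, EBd3 and EBd4. The mES cells grew with LIF and the kinase inhibitors CHIR99021 (3 µM) and PD0325901 (1 µM), and EB formed without LIF. The labels give neither what Dox switches on, nor the time of IAA addition within EB culture, nor whether the inhibitors were in EB medium, nor whether the line is 1 clone. Each group held 3 libraries, and p-values measure only the spread between these samples, since nothing says that they came from separate cultures.

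Wnt proteins are lipid-modified by PORCN, an acyltransferase of the endoplasmic reticulum, and carried to the cell surface by WLS. At the receiving cell they bind Frizzled and LRP receptors and spare beta-catenin from a destruction complex built on Axin, after which beta-catenin joins TCF/LEF factors on target genes. Several targets feed back on the signal: AXIN2 and NKD1 dampen it inside the cell, RNF43 and ZNRF3 remove Frizzled receptors from the surface, and LGR5 with R-spondins relieves that removal. CHIR99021 inhibits the kinase GSK3 of the destruction complex and so acts downstream of secretion. In embryos Wnt signalling is known for its part in forming the primitive streak, and in stem cells for helping to keep the naive state.

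Values are read counts divided by 1 scaling factor per library, called normalized counts below, and reads per library ran from 7819522 to 15732767. In EBd4 each IAA library was deeper (9007143 to 10598075 reads) than each Dox library (7941180 to 8120480), so depth and IAA cannot be told apart there. Every mES and EBd2 library had at least 11005217 reads and every EBd3 and EBd4 library at most 10598075. Depth and stage thus cannot be told apart between EBd2 and EBd3. Libraries of 1 group never agreed within counting noise (chi-square over degrees of freedom from 1.11 to 4.90), and EBd4 IAA 1 and 3 were farthest apart. EBd2 Dox 3 stood off Dox 1 and Dox 2 (4.09 and 3.44, against 1.27 between those). Brd2 RNA does not check a degron, which acts on protein, and was higher in each IAA group than in its Dox group, such as 8034 to 8441 against 4413 to 4606 in mES. All 10 pluripotent cell markers were detected in every group, and their sums are given below for mES, EBd2 and EBd4. In EBd3 they summed to 21014 to 21194 with Dox and 20045 to 20374 with IAA. There 1 of the 10 rose and 2 fell, against 4.22% and 6.32% of all genes. The part of these cells in the EBd3 values was not tested. In these bulk samples fewer cells of a type and less RNA per cell cannot be told apart.

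Promoter windows were available in RefSeq (GRCm38.p6) for 7 of the 10 genes: Wls, Axin2, Lef1, Tcf7, Sp5, Nkd1 and Rnf43, with 12 windows in all, each from 250 bases before to 50 after a transcription start. Porcn, Znrf3 and Lgr5 are named only. Windows of Sp5, Axin2 and Lef1 are shown because, of the members with a window, these had the widest falls in EBd2, and that of Rnf43 because it rose in EBd3 and EBd4. Capitals mark the core motif of TCF/LEF factors, CTTTGAT or CTTTGAA, and the GC box, GGGCGG, searched on both strands. The TCF/LEF cores share all but their last letter, and the GC box shares no stretch with them. The windows read 5′ to 3′ on the plus strand, at chr2:70474673-70474972 for Sp5, chr11:108920099-108920398 for Axin2, chr3:131110047-131110346 for the first of 4 Lef1 starts and chr11:87662837-87663136 for the first of 2 Rnf43 starts.
Sp5: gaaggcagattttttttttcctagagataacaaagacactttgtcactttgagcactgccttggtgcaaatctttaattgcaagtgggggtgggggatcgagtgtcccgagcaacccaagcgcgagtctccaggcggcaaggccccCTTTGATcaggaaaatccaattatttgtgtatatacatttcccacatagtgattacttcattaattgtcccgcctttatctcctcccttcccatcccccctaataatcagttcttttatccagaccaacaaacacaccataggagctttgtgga
Axin2: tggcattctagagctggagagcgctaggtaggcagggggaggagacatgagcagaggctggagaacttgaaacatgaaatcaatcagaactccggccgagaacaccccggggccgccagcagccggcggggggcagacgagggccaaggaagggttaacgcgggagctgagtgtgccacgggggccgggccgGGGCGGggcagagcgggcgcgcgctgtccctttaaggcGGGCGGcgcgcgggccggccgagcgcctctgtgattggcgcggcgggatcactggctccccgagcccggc
Lef1: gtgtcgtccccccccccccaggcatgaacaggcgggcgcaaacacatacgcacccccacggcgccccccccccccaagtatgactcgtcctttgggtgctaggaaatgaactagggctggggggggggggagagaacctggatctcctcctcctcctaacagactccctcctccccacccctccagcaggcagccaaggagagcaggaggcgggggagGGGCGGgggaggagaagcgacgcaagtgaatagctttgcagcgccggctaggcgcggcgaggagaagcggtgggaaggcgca
Rnf43: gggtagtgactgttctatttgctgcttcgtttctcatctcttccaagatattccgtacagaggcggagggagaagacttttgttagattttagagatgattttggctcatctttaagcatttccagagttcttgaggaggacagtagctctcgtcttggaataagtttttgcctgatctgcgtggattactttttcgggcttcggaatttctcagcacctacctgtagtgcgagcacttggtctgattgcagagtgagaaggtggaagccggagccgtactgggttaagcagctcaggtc

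The Sp5 window held CTTTGAT 104 bases before the start, and it was the 1 window of the 12 with either TCF/LEF core, which 8.65% of 32851 RefSeq windows held. GGGCGG stood in 7 of the 12 windows, against 35.7% of all windows, but 2 of the 7 are overlapping Lef1 windows that hold the same site. In the Axin2 window it stood 58 and 20 bases before the start, and in the Lef1 window shown 32 bases before it. The Rnf43 window held none of the 3 motifs. A match is a stretch of letters and not a measured binding site, and other parts of these genes were not searched.

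Porcn was the member that changed most with IAA, and its direction differed between stages: it fell in mES, rose in EBd3 and fell in EBd4. Porcn (ENSMUSG00000031169) lies on mm10 chromosome X from 8193848 to 8206525, minus strand, with no other gene annotated over it. In mES the Dox libraries stood at 147, 148 and 152 normalized counts and the IAA libraries at 10.7, 10.6 and 12.04, from 162 to 170 and from 11 to 16 reads. The groups lay far apart, and the level in IAA was 12.4-fold lower on the log2(value + 1) scale (log2 fold change -3.63 ± 0.16 SE, limma adjusted p = 3.65e-20). In EBd2 Porcn stood at 114, 99.2 and 87.6 with Dox and at 122, 115 and 107 with IAA, ranges that overlapped (0.20 ± 0.12, limma adjusted p = 0.220). In EBd3 every IAA library (235, 227 and 221) lay above every Dox library (147, 152 and 136), a rise of 0.65 ± 0.10 on the log2 scale (limma adjusted p = 6.32e-05). In EBd4 the order turned, with 298, 356 and 306 for Dox over 184, 237 and 281 for IAA (-0.47 ± 0.13, limma adjusted p = 0.0308). The EBd4 ranges did not overlap, but the call was lost without Dox 1, Dox 2, Dox 3, IAA 1 or IAA 2 (limma adjusted p from 0.0603 to 0.184), while the mES and EBd3 calls held in all 13 alternatives.

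The change of the Porcn response between stages was tested in a model of all 24 libraries. The IAA effect in EBd2 exceeded that in mES by 3.83 ± 0.17 on the log2 scale (limma adjusted p = 1.86e-17). The effect in EBd4 was lower than that in EBd3 by -1.11 ± 0.17 (limma adjusted p = 0.000171), and the step from EBd2 to EBd3 of 0.45 ± 0.17 did not pass (limma adjusted p = 0.123). Along the Dox course Porcn fell from mES to EBd2 (-0.57 ± 0.10) and rose to EBd3 (0.54 ± 0.10) and EBd4 (1.13 ± 0.10). Ordered by mean over the 8 groups, Porcn ran from EBd4 Dox (320.1 ± 31.7, SD, n = 3) through EBd4 IAA (234 ± 48.6) and EBd3 IAA (228 ± 7.02) to mES Dox (149 ± 3.03) and EBd3 Dox (145 ± 8.40). EBd2 IAA (115 ± 7.25) and EBd2 Dox (100.3 ± 13.3) followed, with mES IAA (11.1 ± 0.805) lowest. Neighbours within the pairs EBd4 IAA and EBd3 IAA, mES Dox and EBd3 Dox, and the EBd2 groups overlapped, and the other neighbours were apart.

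Wls, which acts after PORCN in the secretory route, moved with IAA in mES alone of the 4 tests, and by much less. Wls lies on chromosome 3 from 159839672 to 159938664, plus strand. Its mES libraries stood at 102, 110.3 and 88.3 with Dox and at 68.4, 70.5 and 64.7 with IAA. These ranges were apart, and Wls fell by 0.55 ± 0.12 on the log2 scale (limma adjusted p = 0.000243), a call kept in all 13 alternatives. In EBd2 (225 to 262 with Dox, 209 to 235 with IAA), EBd3 (325 to 369 and 294 to 355) and EBd4 (832 to 844 and 759 to 863) the ranges overlapped and no test passed. The IAA effect in EBd2 exceeded that in mES by 0.40 ± 0.12 (limma adjusted p = 0.0191), a call lost without mES Dox 2, mES IAA 3, EBd2 Dox 3 or EBd2 IAA 2 (limma adjusted p from 0.0515 to 0.0749). With Dox, Wls rose at each step, by 1.29 ± 0.08, 0.51 ± 0.08 and 1.26 ± 0.08 on the log2 scale. From mES to EBd4 its Dox mean went from 100.3 ± 11.2 to 836 ± 6.94.

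**Figure D1:**
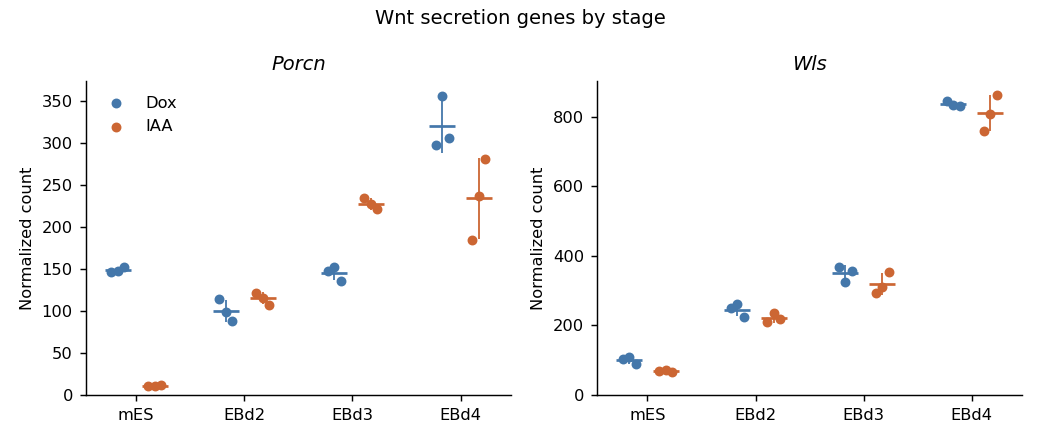
Normalized counts of Porcn and Wls (y axes, linear) in the 4 stages (x axes), with 1 point per library, blue for Dox and orange for IAA; the horizontal line is the mean and the vertical line ± 1 SD of 3 libraries. Porcn in mES IAA lies at 10.6 to 12.04 against 147 to 152 in Dox, is higher with IAA in EBd3 and lower in EBd4, while Wls climbs with stage in both treatments.

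Axin2, the inducible scaffold of the destruction complex and the most used readout of the pathway, fell with IAA in mES, EBd2 and EBd4. Axin2 lies on chromosome 11 from 108920349 to 108950783, plus strand, and shares exonic bases with the antisense gene Gm11670, which averaged 2.04 normalized counts. Since the strand setting of the counting is not given in the sources used here, reads of antisense partners cannot be told apart. In mES the levels were 344, 334 and 377 with Dox and 261, 245 and 318 with IAA, apart and lower with IAA (-0.36 ± 0.07, limma adjusted p = 8.57e-05). That call was lost in the joint fit of all libraries (limma adjusted p = 0.0594).

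In EBd2 the gap was widest, with 357, 356 and 276 for Dox against 116, 103 and 107 for IAA, a 3.00-fold fall (-1.59 ± 0.10, limma adjusted p = 3.89e-10) kept in all 13 alternatives. In EBd3 the groups coincided at 158, 161 and 181 with Dox and 185, 170.2 and 153 with IAA (0.02 ± 0.11, limma adjusted p = 0.946). In EBd4 Dox stood at 699, 613 and 495 and IAA at 253, 339 and 479, just apart (-0.79 ± 0.17, limma adjusted p = 0.00885). This call was lost by DESeq2 (adjusted p = 0.0884) and without Dox 1, Dox 2, IAA 1 or IAA 2 (limma adjusted p from 0.0565 to 0.104). The IAA effect differed at each step between stages, by -1.22 ± 0.20 from mES to EBd2, 1.61 ± 0.20 to EBd3 and -0.81 ± 0.20 to EBd4 (limma adjusted p = 3.58e-05, 2.48e-06 and 0.0173). The last difference was lost by DESeq2 (adjusted p = 0.0563) and without EBd3 IAA 1, EBd4 Dox 1 or EBd4 IAA 1 (limma adjusted p from 0.0501 to 0.0699). With Dox alone Axin2 did not pass from mES to EBd2 (-0.10 ± 0.11), fell to EBd3 (-0.97 ± 0.11) and rose to EBd4 (1.84 ± 0.11).

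Sp5, a zinc finger factor induced by Wnt, had its called fall in EBd2. Sp5 lies on chromosome 2 from 70474923 to 70477729, plus strand. In EBd2 it stood at 21.8, 34.97 and 18.7 normalized counts with Dox, from 26, 37 and 26 reads, and at 2.65, 4.51 and 1.99 with IAA, from 3, 5 and 3 reads. The groups were apart by several-fold (-2.69 ± 0.35, limma adjusted p = 6.37e-06), as in all 13 alternatives. In mES it was low in both groups, 3.62 to 10.2 with Dox and 2.64 to 4.52 with IAA, and did not pass (-0.63 ± 0.43, limma adjusted p = 0.263). In EBd3 no library had more than 2 reads, under the floor of 3 reads, so no fold is given.

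In EBd4 Sp5 was back at 86.6, 66.0 and 34.0 with Dox, and at 2.84, 17.9 and 64.3 with IAA. IAA 1 and IAA 2 lay below all Dox libraries and IAA 3 among them, so the groups overlapped (-1.81 ± 0.68, limma adjusted p = 0.112). Without IAA 3 the change was -2.79 ± 0.54 (limma adjusted p = 0.00516), and the joint fit of all libraries gave a limma adjusted p of 0.0454. Along the Dox course Sp5 rose to EBd2 (1.82 ± 0.45), fell to EBd3 and rose to EBd4, the last steps running through the near-empty EBd3 group.

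Lef1, a TCF/LEF factor that is itself a target, was nearly silent in mES and fell with IAA in EBd2. Lef1 lies on chromosome 3 from 131110471 to 131224356, plus strand, and shares exonic bases with antisense Gm43352 (mean 1.61 normalized counts). In mES it stood at 4.34 to 7.43 with Dox and 4.40 to 8.28 with IAA, from 5 to 11 reads a library. In EBd2 Dox reached 511, 493 and 457, and IAA 313, 251 and 309. The groups were apart (-0.75 ± 0.08, limma adjusted p = 6.56e-07) and stayed past the threshold in all 13 alternatives. From mES to EBd2 with Dox the rise was 6.28 ± 0.17 on the log2(value + 1) scale, the widest of any member tested above the floor in both groups. Lef1 then fell to EBd3 (-1.44 ± 0.17) and stood at 129.7 to 204 in EBd4 Dox. In EBd3 the ranges were 164 to 196 with Dox and 133 to 165 with IAA and overlapped.

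In EBd4 Lef1 stood at 181, 204 and 129.7 with Dox and at 84.3, 138 and 135 with IAA. Dox 3 fell within the IAA range, and the difference did not pass (-0.53 ± 0.19, limma adjusted p = 0.0903), though it did without Dox 3 (-0.72 ± 0.19, limma adjusted p = 0.0328). The IAA effect was lower in EBd2 than in mES by -0.90 ± 0.27 (limma adjusted p = 0.0196). That test leans on 5 to 11 reads in mES and was lost by edgeR (adjusted p = 0.272), by DESeq2 (adjusted p = 0.154) and without mES Dox 1, mES Dox 2, mES IAA 3 or EBd2 IAA 2 (limma adjusted p from 0.0564 to 0.0839).

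Tcf7, which encodes TCF1, was the member with the highest level per length in every group and fell modestly with IAA in mES and EBd2. Tcf7 lies on chromosome 11 from 52252371 to 52283014, minus strand. In mES it stood at 819.9, 859 and 899 with Dox and at 658, 634 and 642 with IAA, well apart (-0.41 ± 0.04, limma adjusted p = 5.37e-10). In EBd2 it stood at 1191, 1285 and 1320.5 and at 1159, 981 and 1114, apart by a narrow gap (-0.22 ± 0.06, limma adjusted p = 0.00833). The EBd2 call was lost without IAA 2 (-0.15 ± 0.06, limma adjusted p = 0.0839). In EBd3 (1609 to 1761 with Dox, 1406 to 1935 with IAA) and EBd4 (2010.5 to 2057 and 2009 to 2450.2) the ranges overlapped and neither test passed. Without IAA 1 the EBd4 difference was 0.25 ± 0.04 (limma adjusted p = 0.00942), against 0.16 with all libraries. With Dox, Tcf7 rose at every step, by 0.56, 0.43 and 0.25 on the log2 scale, each ± 0.05.

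Nkd1, an inhibitor that binds Dishevelled, passed no test of IAA against Dox. Nkd1 lies on chromosome 8 from 88521354 to 88594884, plus strand. It stood at 29.9, 19.1 and 18.6 with Dox in mES and at 16.6, 14.1 and 16.6 with IAA, groups that lay just apart (-0.46 ± 0.25, limma adjusted p = 0.155). In EBd2 (48.2 to 60.4 and 51.4 to 66.2) and EBd3 (58.2 to 76.6 and 43.5 to 74.5) the ranges overlapped. In EBd4 it stood at 179.6, 179 and 118 with Dox and at 79.6, 109.6 and 136 with IAA. Dox 3 and IAA 3 crossed over, and the difference of -0.55 ± 0.19 did not pass (limma adjusted p = 0.0798), though it did without Dox 3 (limma adjusted p = 0.0252) or without IAA 3 (limma adjusted p = 0.0270). With Dox, Nkd1 rose from mES to EBd2 (1.25 ± 0.20) and from EBd3 to EBd4 (1.20 ± 0.20).

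**Figure D2:**
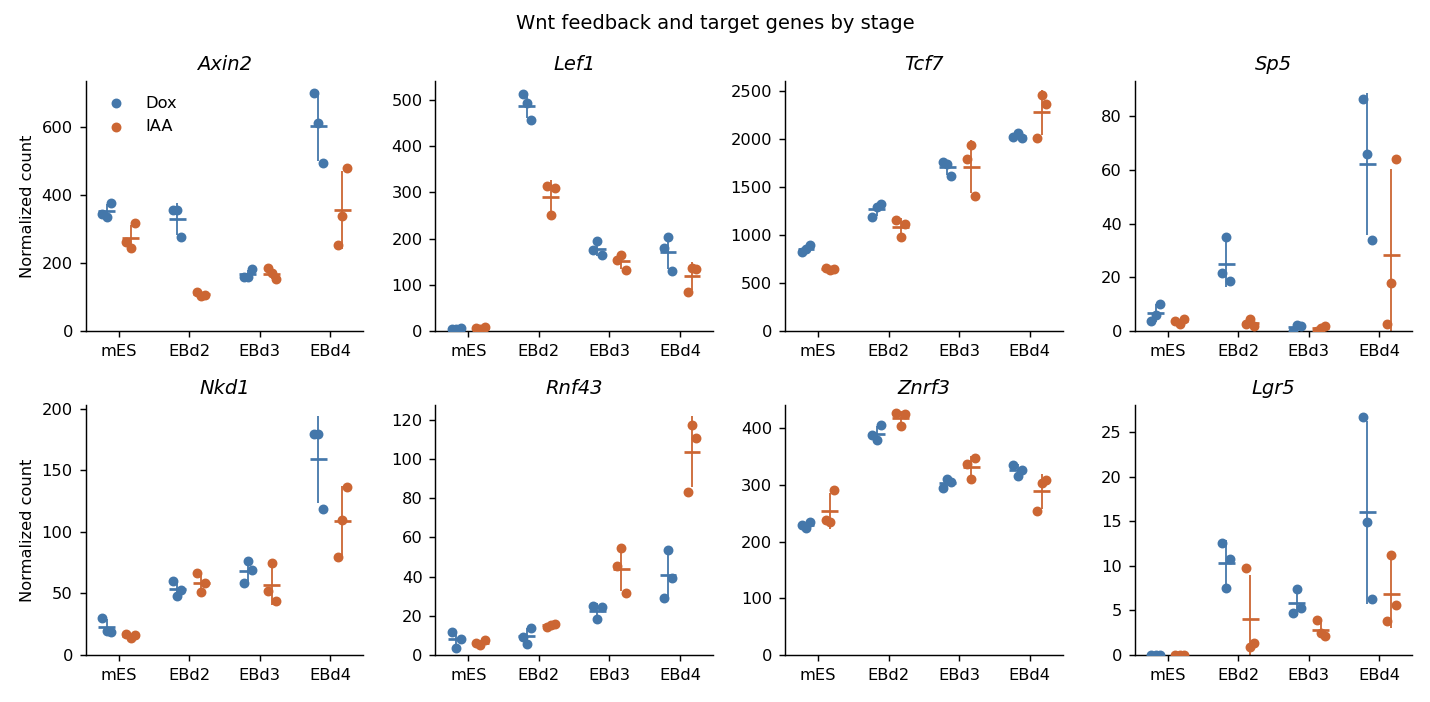
Normalized counts (y axes, linear, each with its own range) of the 8 feedback and response genes in the 4 stages (x axes), 1 point per library, blue for Dox and orange for IAA, with the mean and ± 1 SD of 3 libraries (bars that would cross 0 end there). Axin2, Lef1 and Sp5 separate in EBd2, Rnf43 is higher with IAA in EBd3 and EBd4, and Znrf3 stays between 223 and 426 throughout.

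Of the paired ubiquitin ligases, Rnf43 rose with IAA in EBd3 and EBd4 while Znrf3 passed no test of IAA. Rnf43 lies on chromosome 11 from 87662722 to 87735539, plus strand. It was at 3.47 to 11.8 in mES with Dox and 5.28 to 7.53 with IAA. In EBd2 all IAA libraries (14.1, 15.3 and 15.9) lay above all Dox libraries (9.22, 5.67 and 13.6), short of the threshold (0.69 ± 0.32, limma adjusted p = 0.112) except without Dox 3 (0.96 ± 0.34, limma adjusted p = 0.0274). In EBd3 Dox stood at 24.9, 18.1 and 24.4 and IAA at 45.2, 54.7 and 31.8, apart and higher with IAA (0.92 ± 0.24, limma adjusted p = 0.0142). This call was lost by DESeq2 (adjusted p = 0.0558), in the joint fit (limma adjusted p = 0.0631) and without Dox 2, IAA 1 or IAA 2 (limma adjusted p from 0.0814 to 0.0971).

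In EBd4 Rnf43 stood at 29.3, 53.6 and 39.0 with Dox and at 83.4, 117 and 111 with IAA. Every IAA library was above every Dox library, a 2.56-fold rise (1.36 ± 0.21, limma adjusted p = 0.00118) kept in all 13 alternatives. The differences of the Rnf43 effect between consecutive stages did not pass (0.87 ± 0.46, 0.23 ± 0.46 and 0.44 ± 0.46). With Dox it rose from EBd2 to EBd3 (1.22 ± 0.37), a call lost without EBd2 Dox 2 (limma adjusted p = 0.0654), and the rise to EBd4 passed by edgeR (adjusted p = 0.0154) and not by limma (0.80 ± 0.37, adjusted p = 0.102).

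Znrf3 lies on chromosome 11 from 5276324 to 5444847, minus strand. Its libraries ran from 223 to 235 with Dox and from 234 to 291 with IAA in mES, and from 379 to 405 and from 404 to 426 in EBd2. They ran from 294 to 311 and from 311 to 348 in EBd3, and from 315 to 336 and from 254 to 309 in EBd4. The IAA differences were 0.14 ± 0.07, 0.10 ± 0.07, 0.13 ± 0.08 and -0.18 ± 0.09 on the log2 scale in stage order, none past the threshold in any of the 13 alternatives to each, although the EBd4 ranges were apart. With Dox, Znrf3 rose from mES to EBd2 (0.77 ± 0.07) and fell to EBd3 (-0.36 ± 0.07).

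Lgr5, the receptor for R-spondins that marks Wnt-responsive stem cells in adult tissues, had the lowest level per kilobase of exonic length of the 10 members in each group. Lgr5 lies on chromosome 10 from 115450311 to 115587780, minus strand. In mES no library had a read of it, which at 3 reads a library allows up to 2.61 to 2.79 normalized counts in the Dox group, and it was not tested there for IAA. In EBd2 it stood at 12.6, 7.56 and 10.8 with Dox, at least 3.81-fold higher than this floor over the mES Dox group. With IAA it stood at 9.71, 0.902 and 1.33 in EBd2, from 11, 1 and 2 reads. IAA 1 lay within the Dox range and the other IAA libraries below it (-1.62 ± 0.51, limma adjusted p = 0.0210).

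That call was lost by edgeR (adjusted p = 0.0534), by DESeq2 (adjusted p = 0.137) and without Dox 1, IAA 2 or IAA 3 (limma adjusted p from 0.0827 to 0.132). In EBd3 Lgr5 ran from 4.75 to 7.45 with Dox and from 2.12 to 3.87 with IAA, in EBd4 from 6.29 to 26.7 and from 3.79 to 11.2. The EBd3 ranges were apart and the EBd4 ranges overlapped, and neither test passed, at 2 to 7 reads a library in EBd3 and 4 to 21 in EBd4.

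Counted together, in mES 0 members rose and 4 fell (Porcn, Wls, Axin2 and Tcf7) of 9 tested, where 17.3% of 20865 genes rose and 20.1% fell (37.5% in either direction). The groups did not overlap for 5 members, against 45.8% of all genes. This count, and that of members called in either direction, are near the shares of all genes and by themselves show nothing about the members. The members' median log2 change was -0.41 and that of all genes -0.01. In EBd2 0 rose and 5 fell (Axin2, Lef1, Tcf7, Sp5 and Lgr5) of 10, against 13.4% and 16.7% of 22076 genes (30.1% in all) with 5 members whose groups did not overlap (41.9% of genes), and with medians of -0.19 and -0.04. EBd3 had 2 that rose (Porcn and Rnf43) and 0 that fell, against 4.22% and 6.32% of 21304 genes (10.5% in all). The groups of 3 members did not overlap there (26.9% of genes), with medians of -0.07 and -0.01. For EBd2 and EBd3 too, the counts of members without overlap are near the shares of all genes. EBd4 had 1 that rose (Rnf43) and 2 that fell (Porcn and Axin2), against 4.69% and 5.57% of 21170 genes (10.3% in all). The groups of 4 members did not overlap there (28.5% of genes), with medians of -0.50 and -0.01. In all 4 stages 0 members passed by limma in 1 direction, against 0.948% of 18244 genes that fell and 0.647% that rose throughout. Axin2 and Tcf7 fell in both mES and EBd2, as did 8.34% of genes.

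Along the Dox course, 7 members rose and 1 (Porcn) fell from mES to EBd2, where 35% rose and 29.1% fell of 22141 genes (64.1% in all). From EBd2 to EBd3, 4 rose (Porcn, Wls, Tcf7 and Rnf43) and 4 fell (Axin2, Lef1, Sp5 and Znrf3), against 22% and 24.4% (46.4% in all). From EBd3 to EBd4, 6 rose and 0 fell, against 16.1% and 17.6% (33.7% in all), and Lef1, Rnf43, Znrf3 and Lgr5 did not pass. When IAA effects of consecutive stages were compared, 2 members passed upward and 2 downward in EBd2 minus mES, against 9.73% and 6.61% of 22019 genes (16.3% in all). In EBd3 minus EBd2, 1 passed upward and 0 downward (2.92% and 4.29%, 7.22% in all), and in EBd4 minus EBd3, 0 and 2 (2.71% and 2.23%, 4.93% in all).

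**Figure D3:**
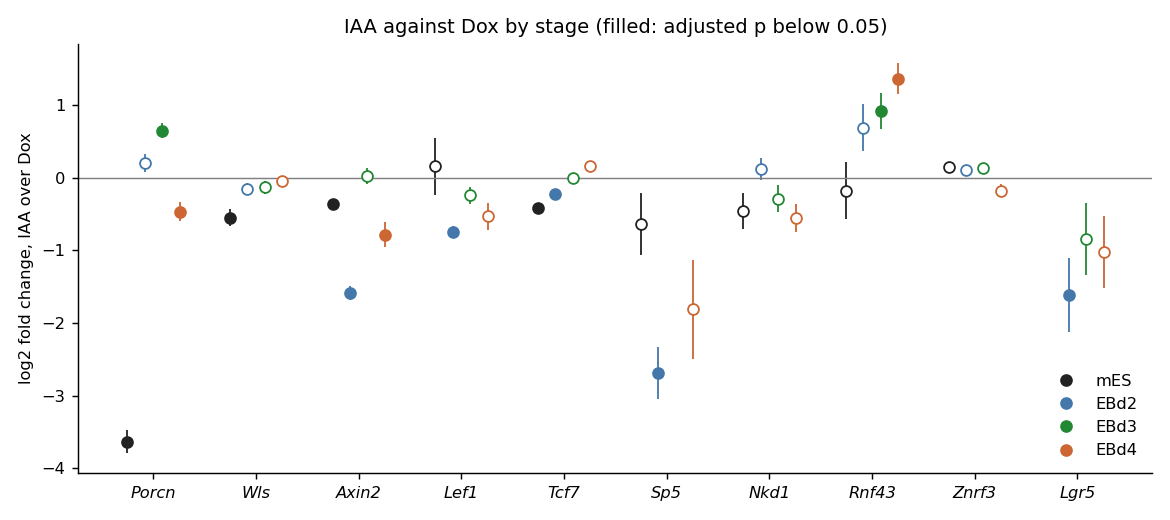
Log2 fold change of IAA over Dox (y axis) for each gene (x axis), 1 point per stage in the order mES, EBd2, EBd3 and EBd4, with bars of ± 1 SE from limma on 3 against 3 libraries; filled points passed an adjusted p of 0.05. Porcn in mES at -3.63 is the lowest point and Rnf43 in EBd4 at 1.36 the highest; Lgr5 in mES and Sp5 in EBd3, at or under the floor in both groups, have no point.

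The authors' deposited table calls a gene changed at an adjusted p below 0.05 with an absolute log2 fold change above 1. By that rule the authors' deposited table lists Porcn as lower in mES, Axin2 and Sp5 as lower in EBd2 and Rnf43 as higher in EBd4. Changes called here under 1 on the log2 scale, such as those of Wls, Tcf7 and Lef1, are listed as unchanged in the authors' deposited table. By adjusted p alone, the authors' deposited table and limma fell on different sides of 0.05 in 3 of 37 member tests. In the authors' deposited table Axin2 in mES (0.0700) and Lgr5 in EBd2 (0.142) did not pass, and Lef1 in EBd4 did (0.0135). For the EBd4 falls of Axin2 and Porcn the authors' deposited table gives adjusted p-values of 3.89e-05 and 0.00489.

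In EBd4, 6 of the 10 members (Porcn, Wls, Axin2, Sp5, Nkd1 and Znrf3) ran in the same order over the IAA libraries as the sum of streak markers, and 5 (Wls, Axin2, Sp5, Nkd1 and Lgr5) did so over the Dox libraries. With 3 libraries a group few orders are possible, and the share of all genes in these orders was not counted. The 6 and 5 therefore show nothing particular to the members. Porcn did not over Dox, where Dox 1 was its lowest library. T, the primitive streak factor Brachyury, chosen after its values were seen, stood at 2091, 1602 and 826 with Dox and at 39.8, 322 and 1556 with IAA (-2.36 ± 0.82, limma adjusted p = 0.0847). The summed level of 10 primitive streak and mesoderm markers was 1103, 958 and 507 with Dox and 111, 255 and 757 with IAA. Eomes, with a mean of 655 with Dox and 255 with IAA, made up most of this sum, which therefore mainly follows 1 gene. Eomes and Hand1 also stand in the trophoblast list, and Pdgfra also in the primitive endoderm list. Dox 1 was highest and IAA 1 lowest for T, this sum, Axin2 and Sp5, and IAA 3 lay nearest to the Dox libraries among IAA. Of the 10 markers, 0 rose and 2 fell with IAA, Eomes (655 to 255 in mean, -1.74 ± 0.48) and Gsc (31.9 to 8.02, -2.23 ± 0.53), and none was at 0 in all libraries of either group. Of all genes in EBd4, 4.69% rose and 5.57% fell. Of 10 pluripotent cell markers 5 rose and 2 fell (sums of 20255 to 21199 with Dox and 19499 to 19778 with IAA), and of 9 tested primitive endoderm markers 0 rose and 2 fell (1205 to 1450.4 and 934 to 1069, Sox17 at 0 with IAA). The part of any of these cells in the EBd4 values of Axin2, Sp5, Lef1, Nkd1 and Porcn was not tested. Nor was it tested for the EBd4 values of the pathway genes named below, such as Wnt3, Wnt8a, Fgf8, Sp8 and Tnfrsf19.

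**Figure D4:**
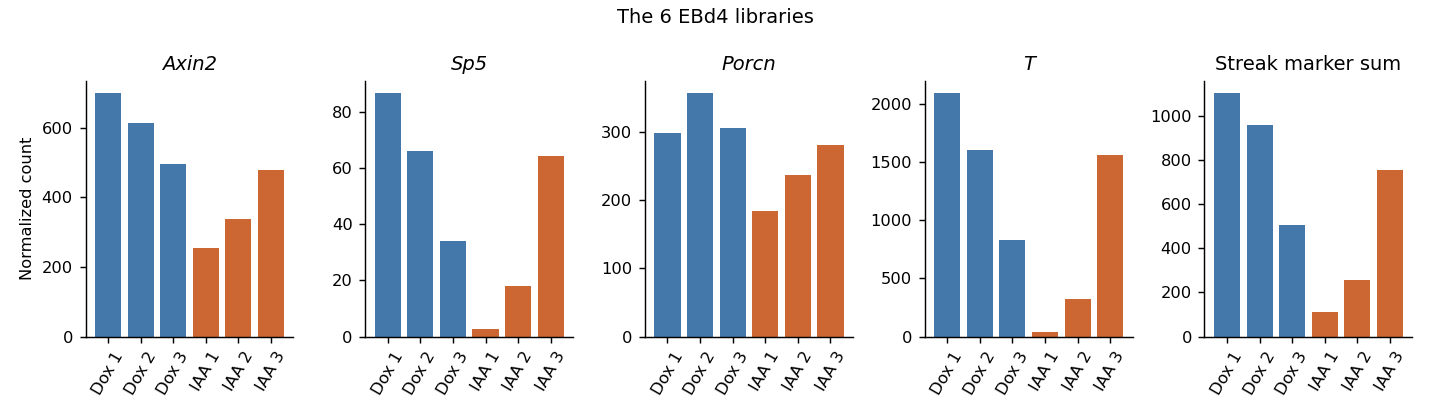
Normalized counts (y axes, linear from 0) in each of the 6 EBd4 libraries (x axes, Dox blue, IAA orange) for Axin2, Sp5, Porcn, T and the sum of 10 streak and mesoderm markers. IAA 1 is lowest and IAA 3 highest among IAA in all 5 panels, and for Sp5, T and the marker sum IAA 3 lies above Dox 3. Axin2, Sp5 and Porcn are drawn from the members in the order of the marker sum over IAA. Lef1, Tcf7, Rnf43 and Lgr5, which were not in that order, are not drawn, and T was chosen after its values were seen.

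In EBd2, where Axin2, Sp5 and Lef1 fell, markers of neural ectoderm were higher with IAA. Of all genes in EBd2, 13.4% rose and 16.7% fell. Of 8 neuroectoderm markers 7 were tested, of which 5 rose and 0 fell, and their summed level was 3046 to 3526 with Dox and 4962 to 5308 with IAA. Pax6, a neural factor, went from 101 to 261 in mean (1.37 ± 0.09), and Hes5 was at 0 in the Dox group. The primitive endoderm sum was 560.1 to 575 with Dox and 729.8 to 781 with IAA, with 2 of 10 markers higher and 1 lower. Streak markers summed to 153 to 164 and 133 to 138, with 0 of 9 tested past the threshold and Msgn1 at 0 with Dox. Of 6 tested fibroblast markers 0 rose and 3 fell, Dcn, Thy1 and Col3a1 (sums of 190 to 241 with Dox and 127 to 142 with IAA, Lum and Postn at 0 with IAA). Of 10 pluripotent cell markers 1 rose and 4 fell (23135 to 24225 and 22714 to 23719), and of 7 tested trophoblast markers 1 rose and 2 fell (348 to 393 and 422 to 453). The counts of endoderm and trophoblast markers called are near the shares of all genes and by themselves show nothing about those groups. The part of any of these cell types in the EBd2 values was not tested. Of the 8 markers of fibroblasts, such as feeder cells, Col3a1, Dcn, Lum and Postn were at 0 in all 6 mES libraries. Col1a1, Col1a2, Thy1 and Pdgfrb were detected in both mES groups. The 8 summed to 97.3 to 116 with Dox and 105 to 130.4 with IAA, with Pdgfrb higher and Thy1 lower among 3 tested. Of all genes in mES, 17.3% rose and 20.1% fell. In mES 4 of 6 tested trophoblast markers fell (sums of 1421 to 1427 with Dox and 1232 to 1274 with IAA, Elf5 at 0 with IAA). Of 10 pluripotent cell markers 6 rose and 3 fell in mES, with sums of 54942 to 56871 with Dox and 60443 to 62172 with IAA. The part of these in the mES falls of Porcn, Wls, Axin2 and Tcf7 was not tested.

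The counts of the pathway lists below stand beside the shares of all genes that rose and fell with IAA, 17.3% and 20.1% in mES. In EBd2 these shares were 13.4% and 16.7%, in EBd3 4.22% and 6.32%, and in EBd4 4.69% and 5.57%. Among Wnt ligands, the genes past the threshold in EBd2 and EBd4 were mostly lower with IAA. Of 19 Wnt ligands listed, 17 were tested in EBd2, of which 1 rose and 7 fell, with a median log2 change of -1.06. Wnt3, the ligand needed for streak formation, fell from 122 to 47.6 in mean in EBd2 (-1.34 ± 0.14), as did Wnt8a (202 to 96.8, -1.06 ± 0.11) and Wnt5b (53.0 to 11.3, -2.14 ± 0.21). By DESeq2 the count in EBd2 was 5. In mES 0 of 9 rose and 1 fell, Wnt5b (38.1 to 9.01, -2.04 ± 0.26), and in edgeR or without Dox 1 or IAA 1 the count was 2, 3 and 2.

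In EBd3 1 ligand of 13 rose, Wnt9a (89.5 to 134, 0.58 ± 0.14), and 2 fell, Wnt3 (-0.85 ± 0.28) and Wnt8a (-0.50 ± 0.14). These calls were unstable, with 0 ligands past the threshold in the joint fit and without Dox 2, Dox 3 or IAA 1, and 1 by DESeq2 and without Dox 1 or IAA 2. In EBd4 1 of 16 rose and 4 fell, among them Wnt8a (1183 to 395, -1.98 ± 0.46), Wnt3 (139.9 to 45.3, -2.09 ± 0.55) and Wnt11 (42.9 to 14.6, -1.68 ± 0.40). There the falls came to 2 by DESeq2, to 0 without Dox 1 or Dox 2, and to 1 without IAA 2. When IAA effects of consecutive stages were compared, 0 of 17 ligands passed in EBd2 minus mES, against 16.3% of all genes. In EBd3 minus EBd2, 1 of 17 passed upward and 0 downward (7.22% of all genes passed). In EBd4 minus EBd3, 0 of 17 passed (4.93% of all genes). A difference of the ligand falls between mES and EBd2 or between EBd3 and EBd4 was thus not called. From mES to EBd2 with Dox, 14 of 18 tested ligands rose and 1 fell, with a median of 2.23 on the log2 scale.

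Of Frizzled, LRP and ROR genes, 3 rose and 3 fell of 14 in mES, 5 and 3 of 15 in EBd2, 0 and 2 of 15 in EBd3 and 1 and 3 of 15 in EBd4. The mES and EBd3 counts are near the shares of all genes and show nothing about receptors as a group. Fzd10, a Frizzled receptor, fell in EBd2 (195 to 100.3, -0.95 ± 0.10), EBd3 (63.8 to 33.1, -0.88 ± 0.22) and EBd4 (303 to 129.5, -1.42 ± 0.31). In mES Fzd7 (-0.42 ± 0.06) and Fzd2 (-0.67 ± 0.12) fell and the co-receptor Lrp6 rose (0.37 ± 0.04). In EBd2 Fzd2 (0.59 ± 0.10) and Fzd3 (0.64 ± 0.10) rose. Fzd7 rose in EBd4 (1542 to 2178, 0.50 ± 0.05) and Ror2 fell (-0.97 ± 0.28). In EBd3 Ror1 also fell (-0.44 ± 0.14). The EBd3 receptor count of 2 went to 0 without Dox 2, Dox 3 or IAA 1 and to 1 by DESeq2, in the joint fit and without Dox 1 or IAA 2. The EBd4 count of 4 went to 1 by DESeq2 and without Dox 1, Dox 2 or IAA 2, and to 2 with the replicate number as a block and without IAA 1.

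Of R-spondins and their receptors other than Lgr5, 0 rose and 2 fell of 4 in mES, 1 and 2 of 6 in EBd2, 0 and 1 of 6 in EBd3 and 0 and 0 of 6 in EBd4. The EBd4 count of 0 by limma was also 0 by edgeR and DESeq2 and 1 in the joint fit and without IAA 3, with 2 genes at an unadjusted p below 0.05. Lgr4, the Lgr5 relative, fell in mES (778 to 651, -0.26 ± 0.04), EBd2 (-0.20 ± 0.05) and EBd3 (1767 to 1362, -0.37 ± 0.05). Rspo1, a secreted ligand of these receptors, rose in EBd2 (58.1 to 87.0, 0.57 ± 0.14).

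Among secreted inhibitors, 1 rose and 3 fell of 7 in mES, 2 and 2 of 10 in EBd2, 1 and 0 of 8 in EBd3 and 1 and 1 of 10 in EBd4. The EBd2, EBd3 and EBd4 counts are within 1 gene of the shares of all genes and show nothing about the group. Sfrp1, which binds Wnt proteins, rose in EBd2 (322 to 579, 0.84 ± 0.07), EBd3 (0.20 ± 0.06) and EBd4 (0.34 ± 0.08). In mES Dkk3 (48.7 to 13.7, -1.79 ± 0.22), Sfrp4 (-0.40 ± 0.12) and Notum, which removes the lipid that PORCN attaches (125 to 87.7, -0.50 ± 0.11), fell. Dkk3 also fell in EBd2 (-0.68 ± 0.18), where Sfrp2 rose (0.56 ± 0.10), and Sfrp4 fell in EBd4 (-0.77 ± 0.23). The mES count of 4 inhibitors was 2 in the joint fit. The EBd3 call of 1 was lost by DESeq2 and without Dox 1, Dox 2, Dox 3, IAA 1 or IAA 2. The EBd4 count of 2 went to 0 with the replicate number as a block and without Dox 1, Dox 2, IAA 1 or IAA 2, and to 1 by DESeq2 and without Dox 3 or IAA 3.

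Inside the cell, most genes of Dishevelled, the destruction complex and beta-catenin rose slightly in mES. Of 16 genes of Dishevelled, the destruction complex and beta-catenin, 13 rose and 0 fell in mES, all by small amounts (median 0.14 on the log2 scale), and 9 to 13 passed over the alternatives. Dvl2, a Dishevelled adaptor, rose from 1265 to 1600.1 (0.34 ± 0.04), and the kinases Gsk3b (0.30 ± 0.04) and Csnk1a1 (0.28 ± 0.02) rose too. In EBd2 4 rose, among them Csnk1e (231 to 356, 0.63 ± 0.10), Dvl2 (0.39 ± 0.05) and Ctnnb1, which encodes beta-catenin (6822 to 8176, 0.26 ± 0.04). In EBd3 3 rose, which were Ctnnb1 (0.15 ± 0.03), Dvl2 (0.22 ± 0.05) and Csnk1e (0.26 ± 0.06), and in EBd4 3 rose, which were Dvl1 (0.27 ± 0.06), Dvl2 (0.52 ± 0.08) and Csnk1a1 (0.17 ± 0.04), with 0 that fell in either stage. In EBd4 the count was 1 without Dox 2 or IAA 2.

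Of 13 nuclear partners of TCF/LEF factors, 6 rose and 3 fell in mES, 2 rose and 1 fell in EBd2, none passed in EBd3, and 2 rose while 0 fell in EBd4. The EBd2 count is near the shares of all genes and shows nothing about these partners as a group. Tle3, a co-repressor, rose in mES (1683 to 2287, 0.44 ± 0.03), fell in EBd2 (1502 to 1116, -0.43 ± 0.06) and rose in EBd4 (0.38 ± 0.06). Tcf7l2, another TCF factor, rose in mES (94.1 to 138, 0.55 ± 0.10) and EBd2 (0.47 ± 0.12), as did the co-activator Bcl9l (0.46 ± 0.07 and 0.44 ± 0.10). Tcf7l1, which represses targets in the absence of signal, rose in EBd4 (0.35 ± 0.07). In EBd3, where limma called 0 (3 at an unadjusted p below 0.05) and DESeq2 0, edgeR, the TMM scaling, the joint fit and the replicate block called 2, and the fit with no filter and that without IAA 3 called 1. In EBd4 the joint fit called 4.

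Of other Wnt targets, 4 rose and 1 fell of 12 in mES, 2 and 5 of 14 in EBd2, 0 and 1 of 14 in EBd3 and 1 and 4 of 14 in EBd4. In mES the homeobox genes Cdx1 (196 to 330.1, 0.76 ± 0.08), Msx1 (1.30 ± 0.29) and Msx2 (0.80 ± 0.15) rose while Axin2 fell. In EBd2 Tnfrsf19, a receptor of the TNF family, fell (246 to 103, -1.25 ± 0.09), as did Sp8, a relative of Sp5 (185 to 106, -0.80 ± 0.10), and Msx1 rose (0.90 ± 0.16). Fgf8, a growth factor of the streak, fell in EBd3 (50.4 to 19.5, -1.34 ± 0.23) and EBd4 (932 to 271, -2.18 ± 0.44), where Sp8 (-1.24 ± 0.27) and Tnfrsf19 (-1.24 ± 0.28) fell too. The joint fit gave 2 calls in mES, 3 in EBd2 and 0 in EBd3, and without Dox 3 the EBd3 count was 2. The EBd4 count of 5 went to 2 by DESeq2, to 1 without Dox 1 or Dox 2 and to 3 without IAA 1 or IAA 2.

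**Figure D5:**
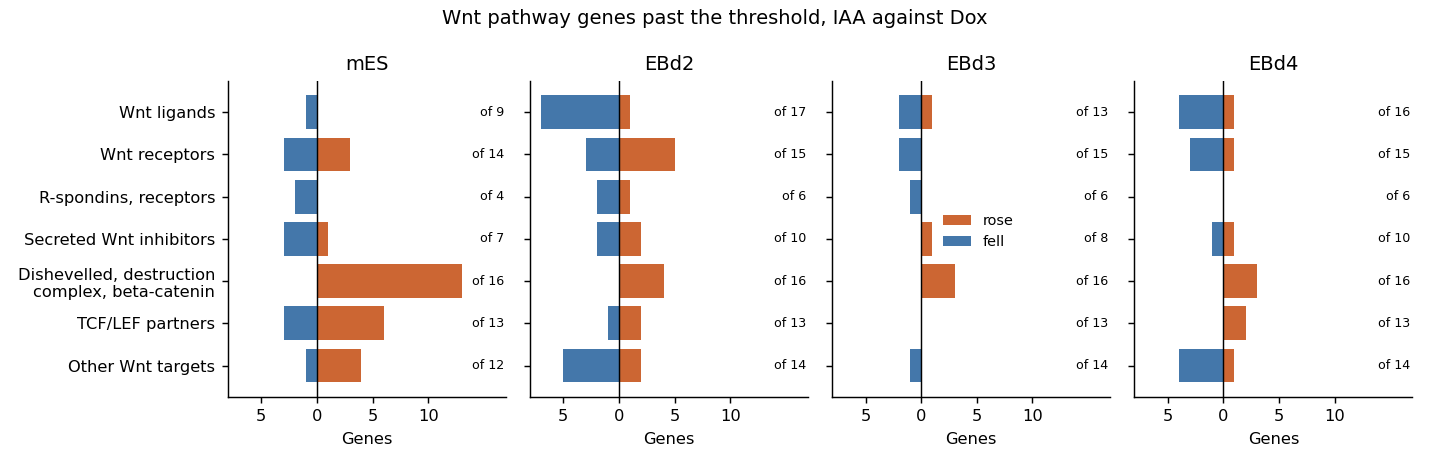
Number of genes of each list (rows) that passed an adjusted p of 0.05 for IAA against Dox, drawn to the right in orange for those that rose and to the left in blue for those that fell, 1 panel per stage, with the number tested at the right edge. The longest bars are 13 of 16 destruction complex genes that rose in mES and 7 of 17 Wnt ligands that fell in EBd2.

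Per kilobase of exonic length, Tcf7 was the highest member in each group, from 246 normalized counts per kb in mES IAA to 866 in EBd4 IAA. In mES Dox, Axin2 (63.9 per kb), Porcn (49.6) and Znrf3 (29.0) followed, and Wls (11.4), Nkd1 (4.94), Sp5 (3.16), Rnf43 (1.20) and Lef1 (0.619) were lower. In EBd4 Dox, Axin2 (109 per kb), Porcn (107) and Wls (95.1) stood close to each other, with Lgr5 (1.56) and Rnf43 (6.20) lowest. In mES IAA Porcn was at 3.71 per kb, below Wls (7.72).

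Over the 24 libraries, compared with 10620 genes of a mean of at least 50, Porcn ran most like Gatad1 (Pearson r = 0.953 on log2(value + 1)), Aspg (0.943) and Elovl1 (0.937). Those genes were also lowest in mES IAA, where Aspg had a mean of 21.1 against 96.5 in mES Dox. Axin2 ran most like Ptp4a2 (r = 0.910), Igdcc3 (0.896) and Atp2b4 (0.860). Among members, Axin2 was closest to Sp5 (r = 0.81) and Porcn to Tcf7 (0.81), while Porcn and Axin2 had an r of 0.16. These values describe libraries that share 8 groups, and carry no test.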

How the data were processed

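RNA of 24 libraries was analysed, 3 in each of 8 groups read from sample titles. The submitters' processing notes name STAR 2.5.3a, featureCounts 1.5.2 and DESeq2, and the build mm10; the DESeq2 version, the annotation version and strandedness are not given in the sources used here. The deposited per-library signal values, 1 table for each of 4 stages with 35742 genes, are counts the authors divided by 1 size factor per library: multiplied back, 100% of values were whole reads within 1e-06. The deposited mean is the mean over all 24 libraries, so the tables share 1 scaling. The authors also deposited log2 fold changes with SE, a score (the DESeq2 Wald statistic) and p-value columns, per the file headers.

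Tests used limma 3.58.1 (trend, R 4.3.3) on log2(value + 1) where a gene's mean over the fitted libraries reached 1, with Benjamini-Hochberg adjustment over all tested genes at 0.05; "rose" and "fell" mean past it. IAA was compared with Dox in a fit of each stage, stage steps in the 12 Dox libraries, and all 24 served for differences of the IAA effect. Errors are SE for log2 changes and SD for levels. Alternatives were a pseudocount of 0.5, no filter, TMM scaling, edgeR 4.0.16 and DESeq2 1.42.0 on the recovered reads, the replicate number as a block, a joint fit of all libraries and leaving out each library. A floor of 3 reads a library limits values of 0, for counting error only. The code was tested on simulated data with a fixed spread, which checks the code and not the results for these data.

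The 10 genes, the pathway and marker lists and the tests were chosen with earlier results of these data known. All 10 genes were named throughout, and from each list up to 3 genes per stage past the threshold with the largest log2 change and a mean of at least 20 in the higher group; T was added after its values were seen, and for marker lists only genes that a result turns on are named. Positions and exonic lengths are from GENCODE M21, in which 35652 of the genes were found.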

Additional observations from a re-analysis of the deposited data

Results flagged for a closer look

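The IAA effect of 4 genes differed between consecutive stages by the interaction test of limma over 24 libraries. Between mES and EBd2 these were Porcn (3.83 ± 0.17 on the log2 scale, adjusted p = 1.86e-17), Axin2 (-1.22 ± 0.20, adjusted p = 3.58e-05), Wls (0.40 ± 0.12, adjusted p = 0.0191) and Lef1 (-0.90 ± 0.27, adjusted p = 0.0196). Between EBd2 and EBd3 it was Axin2 (1.61 ± 0.20, adjusted p = 2.48e-06). Between EBd3 and EBd4 they were Porcn (-1.11 ± 0.17, adjusted p = 0.000171) and Axin2 (-0.81 ± 0.20, adjusted p = 0.0173). For Porcn, all IAA libraries lay below all Dox libraries in mES and EBd4 and above them in EBd3. The Wls, Lef1 and last Axin2 differences are among those lost under alternatives.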

How the results depend on the processing

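Over 99 tests of the 10 genes and 1977 alternative values, 1896 kept their side of the threshold and direction, 37 calls were lost, 18 gained and 0 reversed, and 26 uncalled values changed sign. In 76 tests nothing changed. In EBd3 the genes called went from 2245 to 1283 by DESeq2, and members from 2 to 1 by DESeq2 and to 1 in the joint fit. In EBd4 they went from 2173 to 1365 with the replicate block and 3425 in the joint fit. For EBd4 minus EBd3, 1086 genes became 721 with no filter, and 2 members became 1 by DESeq2.

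Leaving out 1 library gave 6816 to 7234 genes and 4 members in mES, and 5090.0 to 7248 genes and 3 to 6 members in EBd2 (3 without IAA 2). In EBd3 it gave 1202 to 2613 genes and 1 to 2 members (1274 without Dox 1, 1202 without Dox 2, 1463 without Dox 3 and 1321 without IAA 1). In EBd4 it gave 776 to 2039 genes and 1 to 5 members (776 without Dox 1, 837 without Dox 2 and 887 without IAA 2, with 5 members without IAA 3). EBd2 minus mES had 2 to 5 members, EBd3 minus EBd2 1 to 2, and EBd4 minus EBd3 552 to 1358 genes and 1 to 3 members (605 without EBd3 Dox 1, 552 without EBd4 Dox 1). Same-numbered libraries of a stage had deviations correlated from -0.31 to 0.13, so the numbers were not taken to pair samples; the replicate block changed no call of a member. Sp5, Lgr5, Rnf43 and Lef1 in mES rest on few reads, which limits their tests.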
